A study of Homo sapiens with 4 samples.

Results

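The genes described here encode the nuclear subunits of respiratory complexes III and IV and of ATP synthase, also called complex V. They were chosen by symbol, as every protein-coding gene whose GENCODE symbol starts with UQCR, COX4, COX5, COX6, COX7, COX8 or ATP5, plus CYC1. The rule found 47 genes among the 60564 gene identifiers of the count files, with 10 in complex III, 17 in complex IV and 20 in complex V.

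Elf1, a single naïve human embryonic stem cell (ESC) line, was grown in 2-D culture adherent to Matrigel-coated plastic or in 3-D culture inside self-assembling scaffolds. The scaffolds were PEG-8-SH/PEG-8-Acr, a pair of polyethylene glycol polymers that join by a Michael addition, and cells stayed in them for 21 days after being dissociated to single cells. Both groups received the same ESC expansion medium, with FGF2, human LIF, a GSK3 inhibitor and a MEK inhibitor. Ribosomal RNA was depleted and RNA-seq was performed on 2 libraries per group, described as independent biological replicates. The line had been kept on mouse feeder cells before feeder-free culture. Single-cell dissociation, the scaffold, the absence of Matrigel and the days in culture changed together, so they cannot be told apart as sources of a difference between the groups.

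Total counts were between 18276147 and 33833778 per library, and both 3-D libraries were shallower than both 2-D libraries. The core pluripotency list was expressed in all 4 libraries, with summed levels between 2947 and 3078 CPM (counts of a gene scaled to a common library total), and none of its 5 genes was called. Of the naïve list, KLF17 was between 0.465 and 1.07 CPM and DPPA5 between 0 and 0.13 CPM, while the other 5 genes of the list were expressed in every library, from DPPA3 at 5.75 to 7.43 CPM to KLF5 at 46.9 to 57.2 CPM. Of 5 tested fibroblast genes, 3 were called higher in 3-D (COL1A1, COL3A1 and THY1). COL1A2, at 301 to 325 CPM, and PDGFRB, at 7.15 to 9.15 CPM, were not called. The summed level of the list was 529 to 537 CPM in 2-D and 546 to 595 CPM in 3-D. DCN and LUM, the 2 genes of the list not tested, were below 1 CPM in every library. LUM was highest in 3-D replicate 2, at 0.948 CPM. The part of other cells in the differences below was not tested.

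Complex III, the cytochrome bc1 complex, passes electrons from ubiquinol to cytochrome c and pumps protons across the inner mitochondrial membrane. Complex IV, cytochrome c oxidase, passes them on to oxygen and pumps protons as well, and complex V lets protons flow back through its rotating c-ring to make ATP. Each complex combines nuclear subunits with a few that the mitochondrial genome encodes, and pluripotent cells are known for relying on glycolysis as well as on this chain. In bulk RNA, fewer cells of a type and less RNA per cell cannot be told apart.

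Promoter sequence is shown because genes of this chain are known to share binding motifs of a few transcription factors, among them NRF1 and the ETS factor GABPA. RefSeq windows from 250 bases before to 50 bases after a gene's start were at hand for 35 of the 47 genes, on build GRCh38.p14. Motifs were searched as letters on both strands. The ETS letters CCGGAAG were in the windows of 14 of 35 members (40.0%) against 16.7% of 15324 protein-coding genes. The NRF1 motif was in 9 members (25.7%) against 9.74% of the genes, and the YY1 letters AANATGGC in 12 members (34.3%) against 9.78%. The letters GGGCGG, bound by Sp1, were in 62.9% of members and 65.1% of genes, CCAAT in 51.4% and 42.5%, the cAMP response element TGACGTCA in 5.71% and 3.06%, and TATAAA in 11.4% and 12.4%. None of these shares was tested, and a match is not a bound site.

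The 120 bases just before the gene start are printed for 4 members that fell in 3-D grown cells and carry the ETS letters, and for UQCRFS1, which did not pass the test and carries the NRF1 letters. Capitals mark every searched motif, on either strand, and lower case marks the rest. The stretches are chr11:63974500-63974619 (COX8A), chr2:97645942-97646061 (COX5B), chr1:46303578-46303697 (UQCRH) and chr19:35648203-35648322 (COX6B1) on the plus strand, and chr19:29213152-29213271 (UQCRFS1) on the minus strand.
COX8A: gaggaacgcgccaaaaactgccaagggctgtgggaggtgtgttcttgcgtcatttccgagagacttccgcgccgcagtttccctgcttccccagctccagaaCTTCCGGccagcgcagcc
COX5B: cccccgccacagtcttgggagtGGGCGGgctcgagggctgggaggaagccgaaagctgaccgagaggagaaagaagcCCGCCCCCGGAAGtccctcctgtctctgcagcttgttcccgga
UQCRH: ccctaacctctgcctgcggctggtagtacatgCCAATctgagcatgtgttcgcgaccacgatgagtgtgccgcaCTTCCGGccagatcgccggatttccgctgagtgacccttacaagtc
COX6B1: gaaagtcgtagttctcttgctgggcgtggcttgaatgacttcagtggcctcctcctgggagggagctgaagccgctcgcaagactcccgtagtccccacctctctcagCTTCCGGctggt
UQCRFS1: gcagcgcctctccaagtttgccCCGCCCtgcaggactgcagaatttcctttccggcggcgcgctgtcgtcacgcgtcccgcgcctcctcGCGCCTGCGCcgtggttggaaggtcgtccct

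In COX8A, COX6B1 and UQCRH the ETS letters stand on the minus strand of the gene (CTTCCGG), and in COX5B they follow directly on an Sp1 match. The stretch of UQCRH also holds CCAAT, and that of UQCRFS1 an Sp1 match on the minus strand of the gene. Among members with a window, the ETS letters were in 9 of the 14 called lower in 3-D and in 5 of the 18 tested and not called. The NRF1 letters were in 2 of the 14 and 6 of the 18, and the YY1 letters in 5 of the 14 and 7 of the 18. The 2 called lower with the NRF1 letters were ATP5PO and ATP5MJ. UQCR11 and ATP5PF were among the 5 not called with the ETS letters. None of these contrasts was tested.

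Across the whole group, transcripts of nuclear subunits were mostly lower in 3-D than in 2-D grown cells, by 33.0% in the gene that fell most, COX8A, and complex IV held the largest share of called genes. Levels are given in CPM, scaled with edgeR's TMM factors, and a gene is called where its p from the quasi-likelihood test of edgeR, adjusted by Benjamini-Hochberg over the 22555 genes tested, was below 0.05. Of the 43 members with enough counts to test, 16 were called lower in 3-D (37.2%), against 3.36% of all tested genes, and 1 was called higher, against 4.54%. Calls in either direction were made for 17 members and for 7.9% of all tested genes. The fold change was below 0 in 35 members and above 0 in 8. Both 3-D libraries lay below both 2-D libraries in 28 members and above them in 3, against 25.1% and 25.4% of all tested genes. The median log2 fold change was −0.13 over the tested members and −0.00014 over all tested genes. By complex it was −0.06 in III, −0.24 in IV and −0.12 in V. The members together took 0.449% and 0.444% of the counts in 2-D and 0.393% and 0.383% in 3-D, before TMM scaling. With TMM scaling their summed level was 4411 and 4343 CPM in 2-D and 4041 and 3903 CPM in 3-D.

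**Figure D1:**
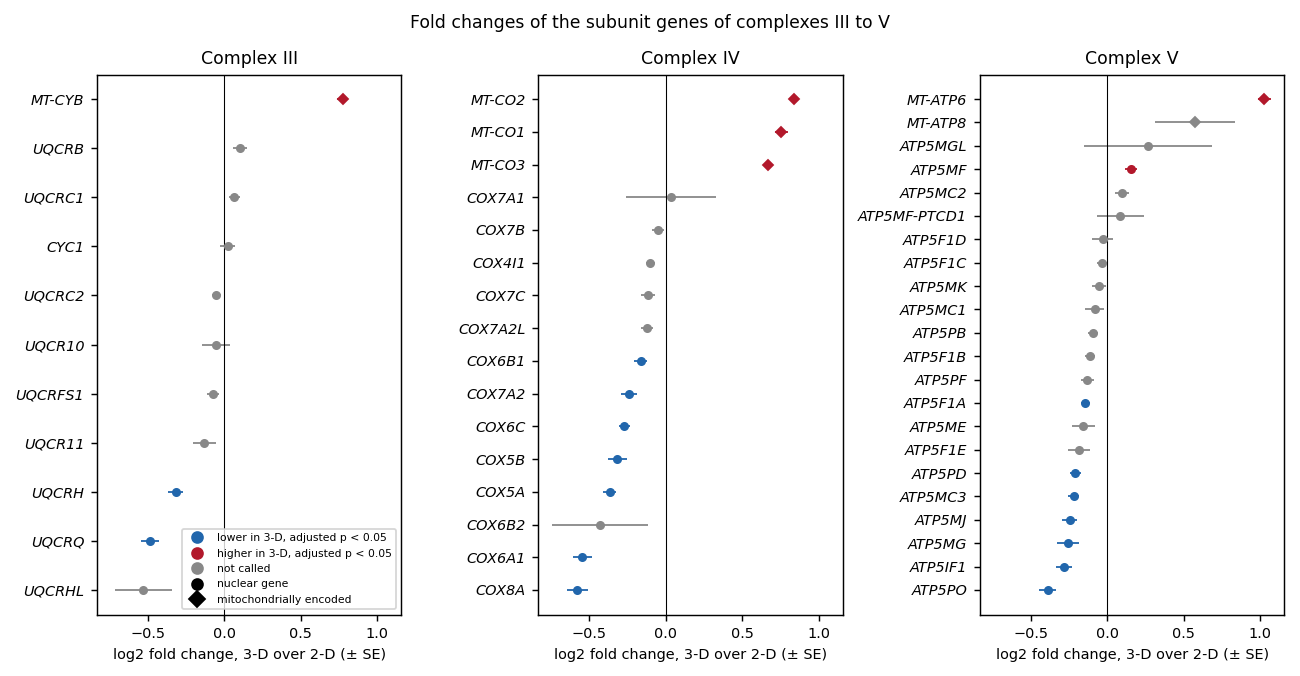
Log2 fold change of 3-D over 2-D (x axis, ± SE) for each tested nuclear gene (circles) and mitochondrially encoded subunit (diamonds), in 1 panel per complex; blue is called lower, red called higher and grey not called. The 16 blue circles all lie left of 0, and the 5 red diamonds between 0.67 and 1.03.

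In complex III, 2 of 10 members fell, both small accessory subunits, and none of the 4 core subunits was called. UQCRQ, a small subunit with a ubiquinone-binding role, was at 39.5 and 38.8 CPM in the 2-D libraries and 27.9 and 27.9 CPM in the 3-D libraries. Its groups lay far apart and the 3-D libraries were nearly equal, and its log2 fold change was −0.49 ± 0.06 (SE; edgeR adjusted p = 0.000377). UQCRH, the hinge protein that helps dock cytochrome c, was at 313 and 304 CPM in 2-D and 265 and 229.7 CPM in 3-D. It was lower in both 3-D libraries, more so in replicate 2, and fell by 0.32 ± 0.05 on the log2 scale (edgeR adjusted p = 0.0023). Per kilobase of its main transcript UQCRH was the highest member of all 3 complexes, at 584 and 567 CPM per kb in 2-D and 494 and 428 CPM per kb in 3-D. This rank depends on the length used. In CPM without scaling by length, ATP5F1B of complex V was higher, at 646 and 633 CPM in 2-D and 580 and 604 CPM in 3-D.

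The core of complex III holds the redox centres and the large matrix proteins. CYC1, cytochrome c1, was at 52.7 and 49.7 CPM in 2-D and 50.9 and 53.3 CPM in 3-D, so its groups overlapped. UQCRFS1, the Rieske iron-sulfur protein, had a log2 fold change of −0.08 ± 0.04 (edgeR adjusted p = 0.295), and the core proteins UQCRC1 and UQCRC2 had 0.07 ± 0.03 and −0.05 ± 0.03. The median over these 4 genes was −0.01 and that over the 6 accessory genes −0.22, a difference that was not tested.

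UQCRHL, a single-exon gene, is a near copy of UQCRH. It was at 19.6 and 16.5 CPM in 2-D and 16.1 and 8.7 CPM in 3-D, with the lowest value in 3-D replicate 2, and was not called (log2 fold change −0.53 ± 0.19, edgeR adjusted p = 0.114). Its transcript matches UQCRH at 98.6% identity over its whole length, and how multiply mapped reads were counted is not stated in the sources used here, so the split of reads between this pair is uncertain. UQCRB, UQCR10 and UQCR11, the other small subunits, had log2 fold changes of 0.10, −0.05 and −0.13, none of them called.

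In complex IV, 7 of the 13 tested members fell and none rose, and all 7 belong to the 10 subunits that most tissues share. Every one of those 10 had a fold change below 0, and their median was −0.26. COX8A, a small subunit that spans the membrane, was at 32.1 and 33.9 CPM in 2-D and 21.5 and 22.8 CPM in 3-D. These 3-D levels were 33.0% lower in the mean, and the log2 fold change was −0.58 ± 0.07 (edgeR adjusted p = 0.000297). COX6A1, a subunit at the dimer interface, was at 47.6 and 50.2 CPM in 2-D and 35.2 and 31.6 CPM in 3-D. The groups stood well apart, by −0.55 ± 0.06 on the log2 scale (edgeR adjusted p = 0.000216).

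COX5A and COX5B sit on the matrix side, and COX5B binds zinc. COX5A was at 95.0 and 90.6 CPM in 2-D and 73.9 and 69.9 CPM in 3-D, and fell by 0.37 ± 0.04 on the log2 scale (edgeR adjusted p = 0.000175, the lowest of the members). COX5B was at 62.5 and 57.9 CPM in 2-D and 51.4 and 45.1 CPM in 3-D, with a log2 fold change of −0.32 ± 0.06 (edgeR adjusted p = 0.00645). In both genes the 3-D libraries lay below the 2-D libraries with room between them.

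COX6C, COX7A2 and COX6B1 fell less. COX6C was at 87.5 and 88.9 CPM in 2-D and 75.1 and 71.1 CPM in 3-D, a log2 fold change of −0.27 ± 0.04 (edgeR adjusted p = 0.000916). COX7A2 was at 73.7 and 70.7 CPM in 2-D and 64.9 and 57.2 CPM in 3-D, a log2 fold change of −0.24 ± 0.05 (edgeR adjusted p = 0.0135). COX6B1, which faces the intermembrane space, was at 88.4 and 84.3 CPM in 2-D and 79.8 and 74.4 CPM in 3-D, a log2 fold change of −0.16 ± 0.04 (edgeR adjusted p = 0.0309). The groups lay nearest to each other in COX6B1, and its call was lost under 6 other settings of the test.

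COX4I1, COX7B and COX7C were the 3 common subunits not called. COX4I1, the subunit at which ATP is known to regulate the enzyme, was at 195 and 194 CPM in 2-D and 180.0 and 183 CPM in 3-D, and its log2 fold change of −0.10 ± 0.03 missed the threshold (edgeR adjusted p = 0.0601). COX7C was the highest member of complex IV per kilobase, at 334 and 321 CPM per kb in 2-D and 318 and 285 CPM per kb in 3-D. Its log2 fold change was −0.12 ± 0.04 (edgeR adjusted p = 0.142), with the lowest value again in 3-D replicate 2. COX7B was at 140.2 and 136 CPM in 2-D and 140.3 and 127 CPM in 3-D, and its groups overlapped.

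**Figure D2:**
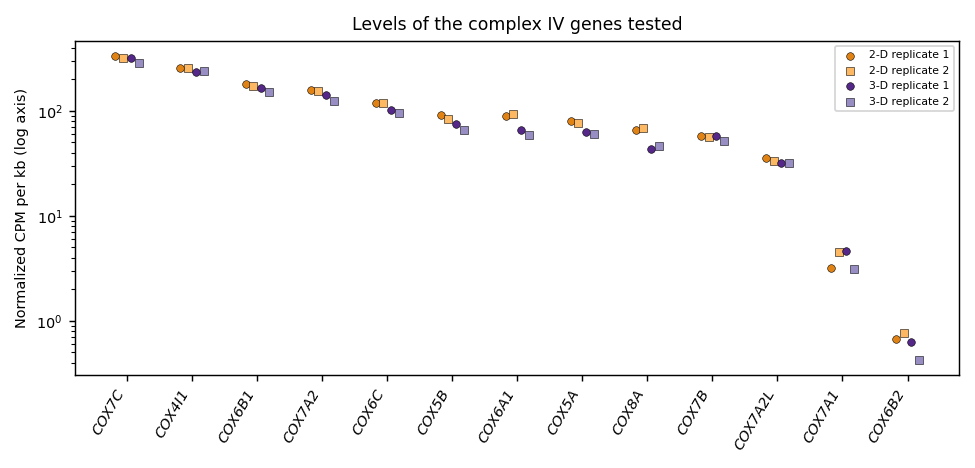
Normalized CPM per kilobase of main transcript (log axis) of the 13 tested complex IV genes in each of the 4 libraries, ordered by mean. COX7C leads with 285 to 334, and COX6B2 is last with 0.427 to 0.767.

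Several complex IV subunits have a second gene used in muscle, lung or testis. COX4I2, COX6A2 and COX7B2 had 0 counts in all 4 libraries, which allows up to 0.0887 and 0.0996 CPM of all counts in the 2-D libraries and up to 0.142 and 0.164 CPM in the 3-D libraries, at 3 counts per library and for counting error only. COX8C had 1 count, in 2-D replicate 2, and has an identical copy on an alternate contig of chromosome 14, so its reads may have been multiply mapped. COX6B2, the testis form of COX6B1, was at 1.05 and 1.2 CPM in 2-D and 0.973 and 0.669 CPM in 3-D and was not called. COX7A1, the muscle form of COX7A2, was at 1.07 and 1.53 CPM in 2-D and 1.56 and 1.06 CPM in 3-D, with overlapping groups. Per kilobase, COX7A2 stood 30.7 to 50.5 times above COX7A1 and COX6B1 225 to 356 times above COX6B2, so the common form made up nearly all transcripts of each pair in both groups. COX7A2L, a related protein that joins complexes III and IV in a supercomplex, was at 80.6 and 76.3 CPM in 2-D and 72.2 and 72.1 CPM in 3-D, and its log2 fold change was −0.12 ± 0.04 (edgeR adjusted p = 0.0799).

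In complex V, 7 of 20 members fell and 1 rose, spread over all parts of the enzyme. The F1 head, where ATP is made, had 1 call among 5 genes, and all 5 fold changes were below 0. ATP5F1A, the alpha subunit, was at 535 and 540.1 CPM in 2-D and 484 and 489.9 CPM in 3-D. The difference was small and the libraries of each group close, with a log2 fold change of −0.14 ± 0.03 (edgeR adjusted p = 0.0102). ATP5F1B, the catalytic beta subunit and the highest complex V member per kilobase, was at 367 and 359.7 CPM per kb in 2-D and 329.9 and 343 CPM per kb in 3-D, and missed the threshold at −0.11 ± 0.03 (edgeR adjusted p = 0.0526). The gamma, delta and epsilon genes ATP5F1C, ATP5F1D and ATP5F1E had log2 fold changes of −0.03, −0.03 and −0.18.

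The peripheral stalk holds the head still against the turning rotor. Of its 4 genes 2 fell, and in all 4 both 3-D libraries lay below both 2-D libraries. ATP5PO, the OSCP subunit that joins stalk and head, was at 38.9 and 39.4 CPM in 2-D and 30.1 and 29.6 CPM in 3-D. This was the deepest difference in complex V, at −0.39 ± 0.06 on the log2 scale (edgeR adjusted p = 0.00143). ATP5PD, subunit d, was at 87.6 and 87.7 CPM in 2-D and 76.9 and 74.8 CPM in 3-D, and fell by 0.21 ± 0.03 on the log2 scale (edgeR adjusted p = 0.00279). ATP5PB and ATP5PF, subunit b and coupling factor 6, were not called, at −0.09 ± 0.03 and −0.13 ± 0.04.

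ATP5IF1 encodes the inhibitor that stops the enzyme from running backwards and splitting ATP. It was at 51.6 and 50.9 CPM in 2-D and 43.7 and 40.4 CPM in 3-D. Its log2 fold change of −0.28 ± 0.05 (edgeR adjusted p = 0.00497) lay between those of ATP5PO and ATP5MG.

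Of the 6 small membrane subunits, 2 fell and 1 rose. ATP5MJ was at 60.1 and 62.9 CPM in 2-D and 54.1 and 49.5 CPM in 3-D, a log2 fold change of −0.24 ± 0.05 (edgeR adjusted p = 0.00922). ATP5MG, subunit g, was at 46.0 and 45.3 CPM in 2-D and 41.6 and 34.7 CPM in 3-D, a log2 fold change of −0.26 ± 0.07 (edgeR adjusted p = 0.047), and its 3-D libraries were the most unequal of the called genes. ATP5MF, subunit f, was at 61.5 and 60.6 CPM in 2-D and 68.5 and 67.4 CPM in 3-D, and rose by 0.15 ± 0.04 on the log2 scale (edgeR adjusted p = 0.024). Libraries of a group agreed closely in ATP5MF, but the call was lost under 7 other settings, and 37.2% of its exon bases are shared on the same strand with PTCD1 and the readthrough gene ATP5MF-PTCD1. ATP5ME, ATP5MK and the sparse gene ATP5MGL were not called, nor was ATP5MF-PTCD1.

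**Figure D3:**
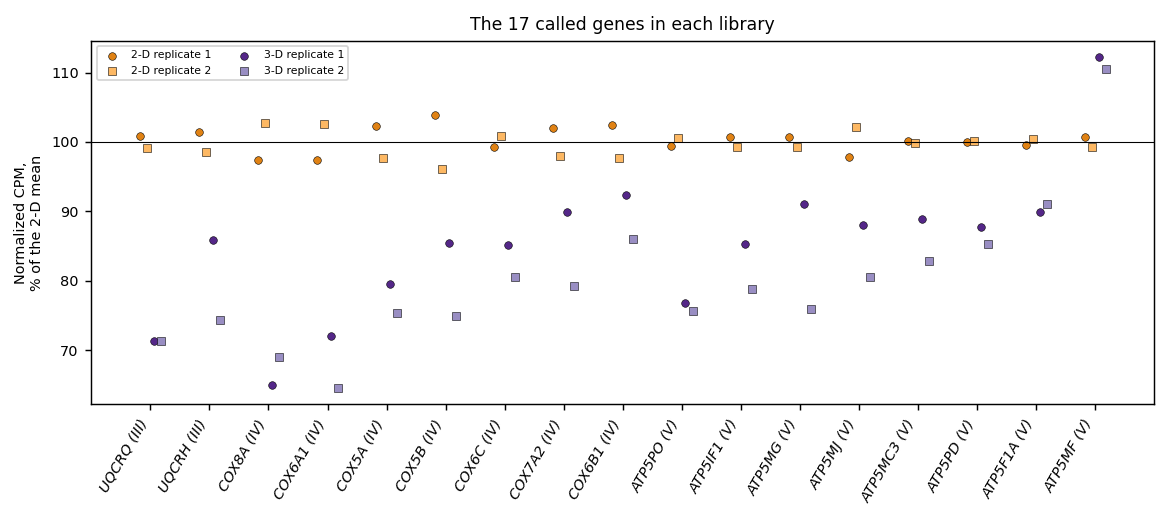
Normalized CPM of the 17 called members in each library, as a percent of the mean of the 2-D libraries (y axis; the axis does not start at 0), ordered by complex and fold change. Both 3-D libraries lie below both 2-D libraries in 16 genes and above them in ATP5MF.

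ATP5MC1, ATP5MC2 and ATP5MC3 encode the same mature c subunit of the rotor ring. ATP5MC3 was at 168 and 167 CPM in 2-D and 149 and 139 CPM in 3-D, and fell by 0.22 ± 0.04 on the log2 scale (edgeR adjusted p = 0.00221). ATP5MC1 was at 40.5 and 39.2 CPM in 2-D and 39.5 and 35.8 CPM in 3-D, and ATP5MC2 at 62.2 and 57.2 CPM in 2-D and 65.0 and 62.8 CPM in 3-D; neither was called. Of the summed CPM per kb of these genes, ATP5MC3 made up 28.7% and 29.9% in 2-D and 25.9% and 25.7% in 3-D, and ATP5MC2 made up 43.6% and 42.0% in 2-D and 46.4% and 47.7% in 3-D. The share of ATP5MC2 was higher and that of ATP5MC3 lower in both 3-D libraries, a shift that was not tested. The size and order of these shares rest on main transcripts of 646, 632 and 2587 bases for ATP5MC1, ATP5MC2 and ATP5MC3. Over all annotated exons the genes span 2615, 3904 and 3883 bases. In CPM without scaling by length, ATP5MC3 was the highest of these genes in every library. The summed level of the ring genes was 226 and 216 CPM per kb in 2-D and 221 and 208 CPM per kb in 3-D, so the groups overlapped. Without scaling by length their sum was 270.3 and 263 CPM in 2-D and 253 and 237 CPM in 3-D, so the groups did not overlap and both 3-D libraries were lower.

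The subunits that the mitochondrial genome encodes went the other way. MT-CYB of complex III was at 3758 and 3558 CPM in 2-D and 6373 and 6142 CPM in 3-D, and rose by 0.77 ± 0.03 on the log2 scale (edgeR adjusted p = 5.26e-08). MT-CO1, MT-CO2 and MT-CO3 of complex IV rose by 0.76, 0.84 and 0.67 on the log2 scale. MT-ATP6 of complex V rose by 1.03 ± 0.04, and MT-ATP8, at 545 and 436 CPM in 2-D and 1032 and 426 CPM in 3-D, was not called and had overlapping groups. Transcripts of the mitochondrial genome took 5.30% and 5.10% of the counts in 2-D and 8.50% and 8.33% in 3-D. With the library total alone as the scale, in place of TMM factors, 25 members were called lower and ATP5MF was not called. Of all tested genes 8.33% were then called lower, against 3.36% with TMM factors.

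Beside the complexes themselves, CYCS, the cytochrome c that carries electrons from III to IV, fell by 0.19 on the log2 scale (edgeR adjusted p = 0.00213). NDUFA4, counted as a complex IV subunit despite its symbol, fell by 0.38 (edgeR adjusted p = 1.35e-05), from 154 and 157 CPM in 2-D to 119 and 120.3 CPM in 3-D. Of 27 assembly factors of complex IV, 5 were called lower (18.5%, against 3.36% of all tested genes) and none higher (against 4.54%). The 5 were COX11, which helps insert copper, COX14, PET100, HIGD1A and HIGD2A. The count depended on the setting. It was 0 under DESeq2, where 2.78% of the 10229 genes with an adjusted p were called lower. DESeq2 gave a p to 42231 genes, and those without an adjusted p counted as not called. The count was 11 with library size only, where 8.33% of all tested genes were called lower. It was 2 under edgeR's likelihood ratio test (2.16% of all genes) or with thinned 2-D libraries (2.79%). Without 2-D replicate 1 it was 2 and without 2-D replicate 2 it was 1. PET100, the deepest of them, was at 3.34 and 3.41 CPM in 2-D and 2.09 and 1.84 CPM in 3-D. Of 9 assembly factors of complex III only UQCC2 was called, at a log2 fold change of −0.25, and of 5 tested factors of complex V none was.

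Members are short genes, with a median main transcript of 799 bases against 3380 bases for all tested protein-coding genes, and 4 exons against 9. Short protein-coding genes as a whole, members included, also had medians below 0. Among tested protein-coding genes with a main transcript under 500 bases, 26.8% were called lower and the median log2 fold change was −0.11, and from 500 to under 1000 bases these were 10.1% and −0.04. Members in the same ranges had medians of −0.16 and −0.13, with 3 of 7 and 8 of 17 called lower. Over all protein-coding genes under 1000 bases, 12.4% were called lower. With length and GC content entered as offsets in the fit, 15 members were called lower, with medians of −0.05 in complex III, −0.22 in IV and −0.10 in V. Members from 1000 to under 2000 bases, where the median of all genes was −0.00058, had a median of −0.12, with 3 of 10 called lower against 5.42% of all genes. From 2000 to under 4000 bases the members' median was −0.09, with 1 of 7 called lower against 3.06%, and for the 2 members of 4000 bases or more it was −0.02, with 1 called lower against 3.30%.

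**Figure D4:**
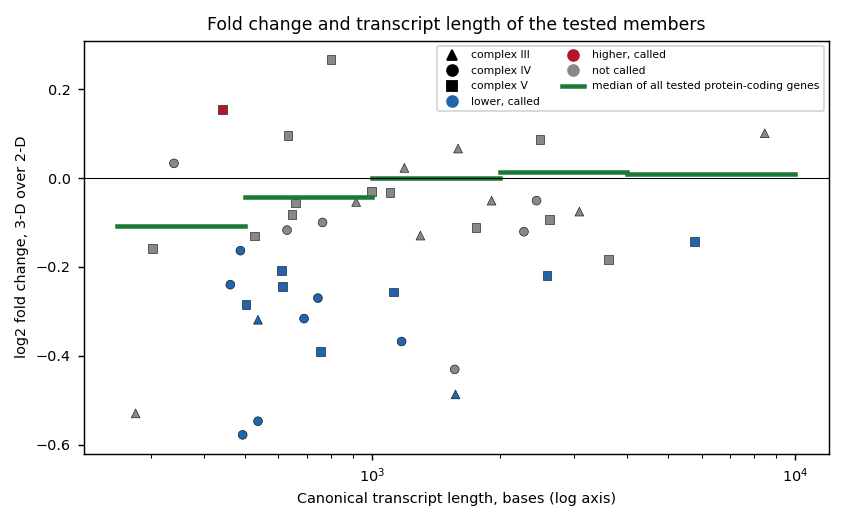
Log2 fold change of each tested member against the length of its main transcript (log axis), with the shape giving the complex and the colour the call; green lines are medians of all tested protein-coding genes in 5 length ranges. The green line is at −0.11 below 500 bases and near 0 from 1000 bases on, and 35 of the 43 members lie below 0.

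The 3-D libraries did not carry the difference equally. Against the mean of the 2-D libraries, the median log2 ratio of the members was −0.11 in 3-D replicate 1 and −0.20 in 3-D replicate 2. In complex IV these were −0.14 and −0.31, in complex V −0.09 and −0.14, and in complex III −0.09 in both. Among members under 500 bases they were −0.11 and −0.33. With 1 library left out, the median log2 fold change of complex IV ranged from −0.31 to −0.15, and the −0.15 came without 3-D replicate 2.

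Some members share exon bases with another gene on the same strand in GENCODE release 44 on hg38, and the sources used here do not say how such reads were assigned. Among the called genes these were ATP5PO (63.8% of exon bases), ATP5MF (37.2%), COX8A (35.4%), COX6A1 (32.6%), ATP5MG (24.4%) and ATP5MC3 (3.63%). COX6A1 also has a near-identical pseudogene, COX6A1P2, at 98.7% identity. Named pseudogenes of the members held between 0.312% and 0.342% as many counts as the members themselves, and with these counts added to their parents 16 members were still called lower. Whether counting used the strand is not stated either, so reads of members whose exons overlap a gene on the other strand cannot be told apart from those of their partners. Among called genes these were ATP5IF1 (15.7% of exon bases), ATP5MG (9.99%), COX6C (9.27%), ATP5PO (6.88%), ATP5PD (6.57%) and UQCRQ (3.94%). Among those not called, the overlap was largest in ATP5ME with MYL5 (39.6%), ATP5F1E with TUBB1 (32.7%) and UQCR10 (19.7%).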

How the data were processed

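RNA of 2-D and 3-D grown Elf1 cells was measured in 4 libraries, 2 per condition. Per the labels and the study's methods, the authors trimmed reads with Trim Galore 0.6.3, mapped them to hg38 with HISAT2 2.1.0 and assigned them to GENCODE release 30 with featureCounts 1.6.4. The deposited counts per gene are whole and not normalized. In a deposited table the authors divided each library's counts by its DESeq2 size factor (normalized signal); its columns of the authors' own comparison (fold changes, p-values) were not used. Conditions were taken from the labels, 60295 of 60564 identifiers matched GENCODE release 44, and no library was pooled or left out.

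Counts were tested with edgeR 4.0.16 (R 4.3.3), with TMM factors, edgeR's own low-count filter, condition alone as the design, the quasi-likelihood test in legacy mode and Benjamini-Hochberg adjustment over 22555 genes; the SE of a log2 fold change was its size over the square root of F. Positions, lengths (Ensembl canonical transcript) and exon overlaps came from GENCODE, near-identical copies (at least 80% covered, at least 98% identity) from minimap2 2.31-r1302, and promoters from RefSeq. Log2 ratios per library used 0.5 CPM as pseudocount. Replicates of a condition differed by more than sampling noise (chi-square over its degrees of freedom 2.27 in 2-D and 3.92 in 3-D). The biological coefficient of variation was 5.10%. On simulated counts for 22555 genes in the same layout, a 1.2-fold change was called in 24% of 50 changed genes. A 1.5-fold change was called in 90% and a 2-fold or larger change in 100%, so small differences can be missed. The simulation gave every gene in both groups the same dispersion and changed only genes with many counts, so rates in the data may differ.

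All members may be named, with values per library for called genes, the highest per kilobase and paralogs of 1 subunit. Other genes come from the pathway and marker lists. Members and lists were chosen with earlier results of these data known. Alternatives are edgeR's likelihood ratio test, edgeR without legacy mode, DESeq2 1.42.0, limma-trend (limma 3.58.1) on the deposited normalized signal (log2, pseudocount 1), other scalings and filters, offsets for length and GC content, a replicate block, thinning of the 2-D libraries and leaving out each library; adding pseudogene counts was chosen after seeing the data. Tables used Python 3.11.15, pandas 2.3.3 and numpy 2.4.6, and figures matplotlib 3.10.9.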

Additional observations from a re-analysis of the deposited data

How the results depend on the processing

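Of the 17 called members, 12 kept their call under all 14 alternatives on the 4 libraries and with each library left out. ATP5MJ lost it only without 2-D replicate 2. COX6B1 lost it with edgeR's likelihood ratio test, DESeq2, limma-trend, thinned 2-D libraries, and without 2-D replicate 1 or 3-D replicate 2, and ATP5F1A and ATP5MG lost theirs under 3 and 7 settings. Members called higher numbered 0 with the likelihood ratio test, DESeq2, library size only and limma-trend, and 2 with the length and GC offsets together with a replicate block. With library size only, which shifts the median of all genes to −0.06, members called lower numbered 4 in complex III, 11 in V and 25 in all, with medians of −0.13 and −0.19 in III and V; of all called genes 78.5% were then lower, against 42.5% with TMM. Leaving out 1 library, where the lone library is assumed to vary like the other group, gave 2 to 4 members called lower in complex III, 6 to 10 in IV, 4 to 11 in V and 14 to 25 in all, 0 to 2 called higher, and medians of −0.089 to −0.066, −0.31 to −0.15 and −0.14 to −0.10. The highest counts of lower members came without 3-D replicate 1, and the 4 of complex V without 2-D replicate 2. Calls over all genes ranged from 795 with DESeq2 and 1139 with the likelihood ratio test to 2393 with library size only and 2486 without the filter, against 1782; dropping 2-D replicate 1 gave 1186 and 2-D replicate 2 gave 974, while dropping 3-D replicate 1 gave 2643 and 3-D replicate 2 gave 2406.

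Same-numbered libraries did not deviate together (r = −0.05 over 15339 genes). This check cannot tell whether they were paired, since a shared deviation smaller than the noise would not show. With a replicate block, 2167 genes were called in all. Of the members, 3, 8 and 8 of complexes III, IV and V were then called lower and 1 higher. Directions that turned were all of uncalled genes. CYC1 was at −0.041 with library size only, −0.0186 with offsets and −0.0190 with offsets and the block, COX7A1 at −0.032 with library size only, and ATP5F1C at 0.0018 and 0.0017 with offsets, without and with the block. With 1 library left out, CYC1 ranged from −0.0169 to 0.0648, UQCR10 from −0.25 to 0.12, COX7A1 from −0.28 to 0.30, COX7B from −0.13 to 0.0214, ATP5F1D from −0.0865 to 0.0295, ATP5MGL from −0.12 to 0.61, ATP5MK from −0.13 to 0.0147 and ATP5MF-PTCD1 from −0.0595 to 0.24. The causes were not tested.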

Other observations

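Of 35 tested nuclear subunits of complex I, which passes electrons from NADH to ubiquinone, 10 were called lower in 3-D grown cells and none higher (28.6% lower, against 3.36% of all tested genes), with a median log2 fold change of −0.16. The deepest were NDUFB2, at 38.4 and 35.5 CPM in 2-D and 26.7 and 24.2 CPM in 3-D, and NDUFB6, at 28.7 and 28.8 CPM in 2-D and 20.7 and 19.3 CPM in 3-D. Of the 4 subunits of complex II, SDHC, a membrane anchor, was called lower, at a log2 fold change of −0.20. SDHD was at −0.20, SDHA at 0.05 and SDHB at 0.02, none of them called, and the median of the 4 was −0.09. The complex I count ranged from 4 to 19 under the alternatives on all 4 libraries, so its size depends on the setting. Over the same alternatives, the share of all genes called lower ranged from 2.16% with the likelihood ratio test to 8.33% with library size only.

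Among 6 proliferation genes, MKI67 was called higher at a log2 fold change of 0.27 and CDK1 lower at −0.21. Cardiac and skeletal muscle markers, of which 2 of 6 could be tested, gave no call, beside muscle-type subunit genes at or near 0. None of 6 tested germ layer markers was called, but all 6 had log2 fold changes above 0, with a median of 0.18. GATA6, an endoderm factor, was at 0.842 and 1.1 CPM in 2-D and 2.34 and 1.51 CPM in 3-D, a log2 fold change of 1.0 ± 0.28 (SE; edgeR adjusted p = 0.0516). The summed level of the germ layer list was 62.7 to 63.2 CPM in 2-D and 68.9 to 69.8 CPM in 3-D. Of the 6 tested genes of the naïve list, KLF5 was called higher and the other 5 were not called. The log2 fold change was above 0 in 3 of the 6 and below 0 in 3, with a median of 0.015. The part of other cells in the subunit differences was not tested.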
